A study of Rattus norvegicus with 12 samples.

Results

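The genes described here are those of glycolysis, the pathway that splits glucose into pyruvate, and of lactate dehydrogenase, in rat kidney after ischemia-reperfusion injury. They were chosen as array rows annotated with exactly 1 of 10 symbols: Hk1, Hk2, Pfkl, Pfkp, Pfkfb3, Aldoa, Pgk1, Eno1, Pkm and Ldha. Hk2, Pfkl, Pfkp, Pfkfb3, Aldoa, Pgk1 and Ldha each had 1 such row, so 7 genes of 18166 genes tested are reported. Hk1 had no listed row, and the single rows of Eno1 and Pkm also carried other symbols, so these 3 were not analysed here.

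Ischemia-reperfusion injury interrupts the blood supply of the kidney and then restores it. Whole kidney tissue was taken at day 2 or day 7 after the injury from rats treated with either placebo or anti-miR-182, an agent that blocks the microRNA miR-182. This made 4 groups of 3 rats (placebo day 2, anti-miR-182 day 2, placebo day 7 and anti-miR-182 day 7), with 1 array per animal code in the sample titles. All groups had the injury, and no uninjured kidney is among the arrays. Neither strain, sex and age nor how much inhibitor was used, and when, is given in the sources used here. One description label names a zero-hour biopsy, in conflict with the titles, and the groups follow the titles. Replicate numbers only name the arrays of a group. All levels are log2 signals of an array row, so a difference of 1 is a doubling, and the level of one gene cannot be set against that of another.

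Glycolysis turns glucose into pyruvate in the cytosol and yields ATP without oxygen. Hexokinase 2 (Hk2) traps glucose in the cell by phosphorylation. Phosphofructokinase, of which Pfkl encodes the liver-type and Pfkp the platelet-type subunit, commits the sugar to the pathway. Pfkfb3 encodes an enzyme that makes fructose 2,6-bisphosphate, the activator of phosphofructokinase. Aldolase A (Aldoa) splits the sugar, phosphoglycerate kinase (Pgk1) makes ATP, and lactate dehydrogenase A (Ldha) reduces pyruvate to lactate and restores the NAD+ that the pathway needs. In the healthy kidney the proximal tubule burns mainly fatty acids and makes glucose, while distal segments use glycolysis, and injured proximal tubule cells are known to take up glycolysis. Several of these genes are known targets of the hypoxia-inducible factor HIF, which often binds DNA at the letters ACGTG.

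The inhibitor is directed against the mature miR-182, shown here because it defines the treatment. Its sequence (RefSeq, GRCr8, chr4:59752249-59752273, minus strand) is given 5′ to 3′, with the seed, bases 2 to 8, in capitals.

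rno-miR-182: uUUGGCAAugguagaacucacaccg

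The RefSeq table of promoters held 6 of the 7 genes. In the 250 bases before each annotated start, the letters ACGTG were searched on both strands, which read CACGT on the printed strand for a match on the other one. They were present for 3 genes: Ldha, Pfkfb3 and Aldoa (in 1 of its 3 windows). No match was found in the windows of Hk2, Pfkl and Pfkp. Of all 33469 rat windows of this length 16.6% held these letters, so a match is common and is not evidence of binding. The window of Ldha held 3 matches, at 87, 86 and 73 bases before the start, of which the first pair overlap in a single CACGTG. Pfkfb3 had 2 matches, at 42 and 41 bases, also from 1 CACGTG. The sequence CACGTG, which other factors such as MYC also bind, was present in 5.59% of all windows. The windows of Ldha (chr1:106507842-106508091, plus strand) and Pfkfb3 (chr17:71944683-71944932, plus strand, a start inside the gene span) are printed as the genes with this sequence. That of Hk2 (chr4:116841276-116841525, minus strand) is printed as a gene with none. All are in GRCr8, in the direction of the gene, with ACGTG or CACGT in capitals.

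Ldha: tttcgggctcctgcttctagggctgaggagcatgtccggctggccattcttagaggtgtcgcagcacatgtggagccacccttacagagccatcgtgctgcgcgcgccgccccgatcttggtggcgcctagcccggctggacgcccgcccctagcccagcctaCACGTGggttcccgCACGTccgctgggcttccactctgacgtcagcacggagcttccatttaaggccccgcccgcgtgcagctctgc

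Pfkfb3: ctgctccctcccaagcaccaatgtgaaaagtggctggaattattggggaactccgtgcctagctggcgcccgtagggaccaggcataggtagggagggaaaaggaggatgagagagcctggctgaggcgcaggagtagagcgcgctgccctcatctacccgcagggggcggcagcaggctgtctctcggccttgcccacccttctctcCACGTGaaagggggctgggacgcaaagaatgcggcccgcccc

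Hk2: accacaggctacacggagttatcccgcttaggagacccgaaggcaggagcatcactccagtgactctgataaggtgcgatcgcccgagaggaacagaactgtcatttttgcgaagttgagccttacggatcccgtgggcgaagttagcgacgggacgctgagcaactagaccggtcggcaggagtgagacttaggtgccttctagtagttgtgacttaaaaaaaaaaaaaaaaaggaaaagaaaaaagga

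In GRCr8 Ldha lies on chromosome 1 at 106508092 to 106517512 and Aldoa on chromosome 1 at 190832820 to 190838021. Hk2 lies on chromosome 4 at 116792258 to 116841275, Pfkl on chromosome 20 at 10663907 to 10685967, and Pgk1 on chromosome X at 75336988 to 75352962. Pfkp and Pfkfb3 are both on chromosome 17, at 68639749 to 68704055 and at 71893320 to 71974526. RefSeq names 30 pseudogenes of Ldha, 9 of Aldoa and 8 of Pgk1, copies that the rows of these 3 genes could also pick up. How alike their sequences are was not checked. RefSeq names 0 for Hk2, Pfkl, Pfkp and Pfkfb3.

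The arrays differed mainly by day. Day 2 and day 7 separated on principal component 1, with 51.9% of the variance, and anti-miR-182 day 2 replicate 3 stood apart on component 2 (-29.4, others -9.18 to 15.4). Median signals over all rows were 5.98 to 6.10 at day 2 and 5.84 to 5.93 at day 7, and 190 rows had values at day 7 only. Each day may therefore have been normalized by itself, and a difference between days and one between normalization runs cannot be told apart. The 11 proximal tubule marker genes had mean log2 signals of 9.54 to 10.8 on the arrays. The row of the miR-182 gene, Mir182, had higher signals under the inhibitor (4.48 to 4.84 against 6.21 to 6.57 at day 2, and 3.97 to 4.75 against 4.93 to 5.999 at day 7). Such groups without overlap, higher under the inhibitor, were seen for 8.06% of all genes at day 2 and 3.5% at day 7. For Mir182 neither day passed the test (limma adjusted p = 0.0771 and 0.999), while the mean over both days did (0.0104). The median SD of the 7 genes within a group was 0.147, 0.195, 0.177 and 0.113 in placebo day 2, anti-miR-182 day 2, placebo day 7 and anti-miR-182 day 7. Over all genes it was 0.112, 0.179, 0.146 and 0.137.

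Time after injury was compared first, since it gave the only calls among the 7 genes. Ldha rose in both treatments, and none of the other 6 genes was called as higher in either. In placebo at day 2 its log2 signals were 10.66, 11.03 and 10.65, and at day 7 they were 11.38, 11.73 and 11.50. Under anti-miR-182 they were 10.57, 10.70 and 10.32 at day 2 and 11.24, 11.35 and 11.43 at day 7. Every day 7 array lay above every day 2 array, which 2.41% of all genes did in this direction and 19.9% in the other.

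Ldha was higher at day 7 by 0.75 ± 0.14 (log2 difference ± SE, n = 3 against 3) in placebo, a fold of 1.69 (95% interval of the log2 difference 0.45 to 1.06, adjusted p = 0.00242, limma with Benjamini-Hochberg adjustment over all genes). Under anti-miR-182 it was higher by 0.81 ± 0.14, a fold of 1.75 (interval 0.51 to 1.11, limma adjusted p = 0.00166). Ldha was the 1 called gene of the 7 in placebo, where 28% of all genes tested were called (4.22% higher and 23.7% lower). Under anti-miR-182 2 of the 7 were called, Ldha and Pfkl, where 27.5% of all genes were called (2.68% higher and 24.9% lower). The day comparisons of Ldha in both treatments rest on different rats, and their difference of 0.06 ± 0.20 did not pass (limma adjusted p = 0.999, interval -0.37 to 0.49).

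Most genes of the arrays were lower at day 7, with a median difference of -0.18 in placebo and -0.21 under anti-miR-182. Relative to these medians, Ldha was higher by 0.93 and 1.01. With each array centred on its median the differences were 0.90 and 0.99, and with quantile normalization over all 12 arrays they were 1.07 and 1.11. Centring changed the split of all genes in placebo to 8.15% higher and 9.62% lower, and under anti-miR-182 to 6.23% and 7.44%. Quantile normalization gave 7.81% and 8.1% in placebo and 6.94% and 7.79% under anti-miR-182. The rise of Ldha passed the test under all 21 alternatives run in each treatment, with log2 differences of 0.66 to 1.07 in placebo (adjusted p from 0.000593 to 0.0147) and 0.70 to 1.11 under anti-miR-182 (adjusted p from 0.000623 to 0.00883).

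**Figure D1:**
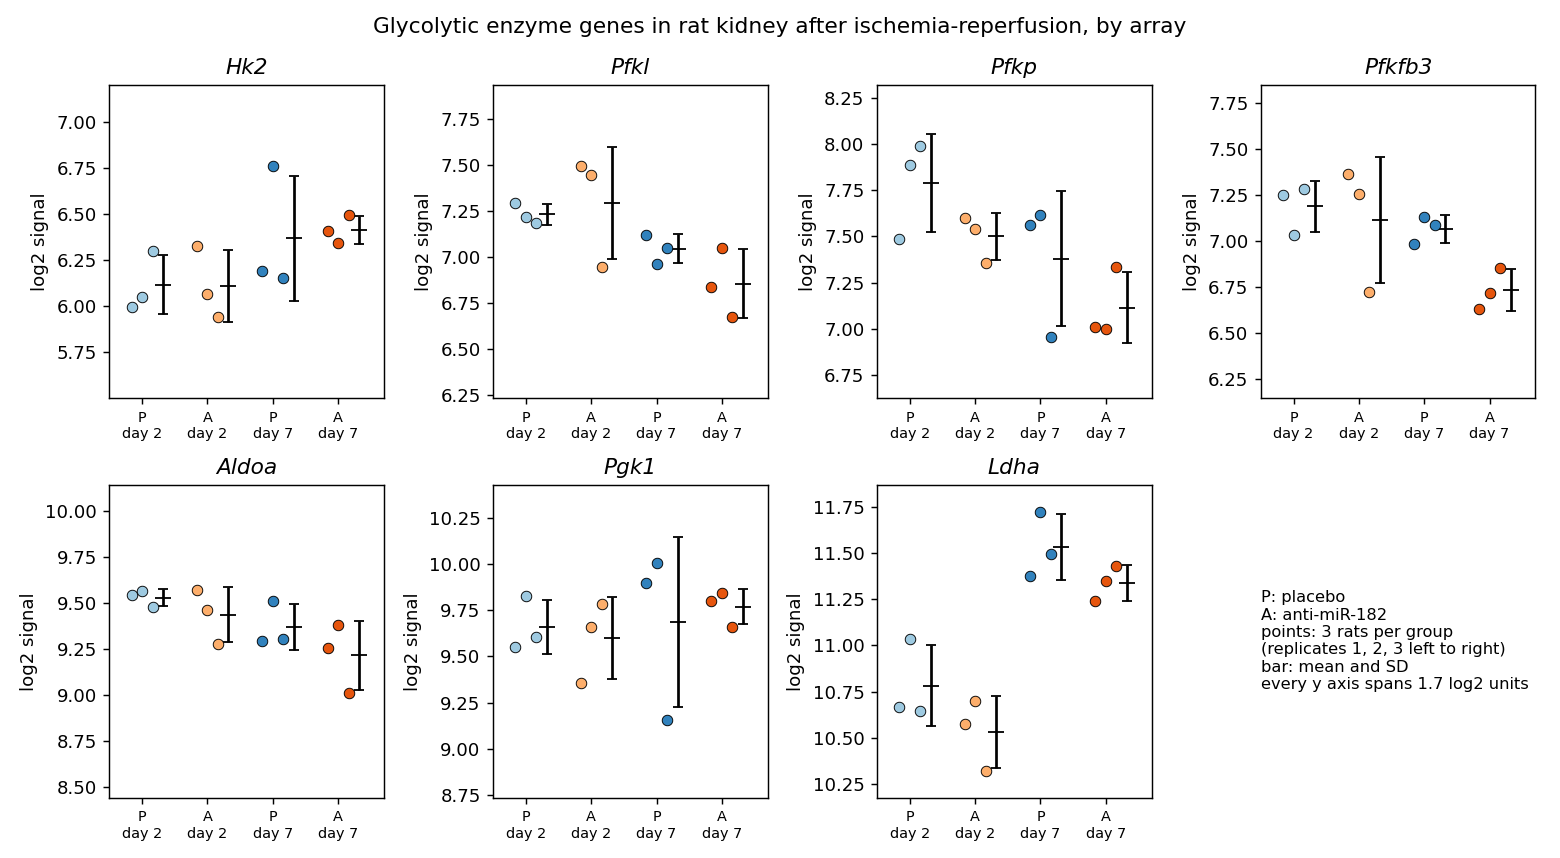
Log2 signal of each of the 7 genes (panels) in the 4 groups; each point is 1 rat, and the bar shows the mean with SD of 3 rats. Every vertical axis spans the same number of log2 units; the day 7 points of Ldha (11.24 to 11.73) all lie above its day 2 points (10.32 to 11.03), while both days overlap for each of the other 6 genes.

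Within an array, Ldha was then set against the other 6 genes. Its signal minus their mean was 2.81, 3.10 and 2.67 in placebo and 2.62, 2.79 and 2.65 under anti-miR-182 at day 2. At day 7 it was 3.54, 3.73 and 3.88 in placebo and 3.58, 3.63 and 3.76 under anti-miR-182. The values of both days did not overlap, and the share of all genes for which this holds was not computed. Ldha was set apart after its rise was seen, so these values restate that rise and add no separate support. They show unequal change within the arrays, and a scaling that adds a constant to an array leaves them as they are.

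**Figure D2:**
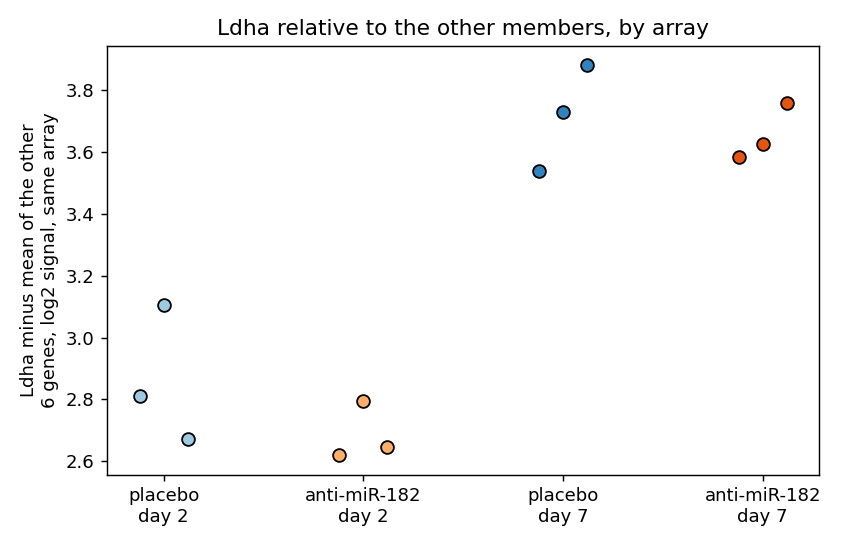
Ldha log2 signal minus the mean log2 signal of the other 6 genes on the same array, by group; each point is 1 rat. The 6 day 2 arrays lie at 2.62 to 3.10 and the 6 day 7 arrays at 3.54 to 3.88.

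The phosphofructokinase genes and their activator-making enzyme had day 7 means below day 2 as deposited. For Pfkl, the liver-type subunit, the signals in placebo were 7.29, 7.21 and 7.18 at day 2 and 7.12, 6.96 and 7.05 at day 7. Under anti-miR-182 Pfkl was at 7.49, 7.44 and 6.94 at day 2 and at 6.84, 7.05 and 6.67 at day 7. The placebo groups did not overlap, which held for 48.3% of all genes (8.38% higher and 40% lower), while replicate 3 of the anti-miR-182 day 2 group lay among the day 7 values.

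Pfkl fell by 0.44 ± 0.15 under anti-miR-182 (limma adjusted p = 0.0381) and differed by -0.19 ± 0.15 in placebo (adjusted p = 0.350). The call rests on the scaling, since array centring gave -0.25 (adjusted p = 0.194) and quantile normalization -0.25 (0.237). It was lost as well when every row was tested (0.0670) or when 1 array was left out in 6 of 12 cases: anti-miR-182 day 2 replicate 1 (adjusted p = 0.118) or 2 (0.133), anti-miR-182 day 7 replicate 1 (0.0922) or 3 (0.140), and placebo day 2 replicate 2 (0.0523) or 3 (0.0508).

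Pfkp, the platelet-type subunit, had signals of 7.49, 7.89 and 7.99 in placebo at day 2 and 7.56, 7.62 and 6.96 at day 7. Under anti-miR-182 the signals were 7.60, 7.54 and 7.36 at day 2 and 7.01, 6.996 and 7.34 at day 7. Replicate 3 of placebo day 7 was low and the other two lay within the day 2 range, whereas the anti-miR-182 days did not overlap, as for 40.4% of all genes (5.36% higher and 35% lower). The differences of Pfkp were -0.41 ± 0.18 (limma adjusted p = 0.102) and -0.39 ± 0.18 (0.120), and neither passed. With array weights the placebo value was -0.44 and passed (adjusted p = 0.0496).

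Pfkfb3 was measured at 7.25, 7.03 and 7.28 in placebo at day 2 and at 6.98, 7.13 and 7.09 at day 7, and these groups overlapped. Under anti-miR-182 it was at 7.37, 7.26 and 6.73 at day 2 and at 6.63, 6.72 and 6.85 at day 7. Replicate 3 of anti-miR-182 day 2 again lay among the day 7 values. The Pfkfb3 differences of -0.12 ± 0.15 in placebo (limma adjusted p = 0.572) and -0.38 ± 0.15 under anti-miR-182 (0.0715) did not pass. Without that array the second was -0.58 and passed (adjusted p = 0.00601), and it passed with array weights at -0.48 (0.0198). The placebo value turned to 0.03 with centring and 0.07 with quantile normalization.

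Hk2, which takes glucose into the pathway, was at 5.998, 6.05 and 6.30 in placebo at day 2 and at 6.19, 6.76 and 6.15 at day 7. Under anti-miR-182 Hk2 was at 6.32, 6.07 and 5.94 at day 2 and at 6.41, 6.34 and 6.495 at day 7. All 3 anti-miR-182 arrays of day 7 lay just above those of day 2, as in 5.36% of all genes, and the placebo groups overlapped. The differences were 0.25 ± 0.16 (limma adjusted p = 0.248) and 0.30 ± 0.16 (0.168). Under anti-miR-182 they became 0.49 with centring (0.0573) and 0.49 with quantile normalization (0.0526), and none of these passed.

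Aldoa signals were 9.54, 9.56 and 9.48 in placebo at day 2 and 9.29, 9.51 and 9.30 at day 7. The anti-miR-182 signals of Aldoa were 9.57, 9.46 and 9.28 at day 2 and 9.26, 9.38 and 9.01 at day 7. In both treatments the days overlapped, and the differences of -0.16 ± 0.12 and -0.22 ± 0.12 did not pass (limma adjusted p = 0.343 and 0.191). Quantile normalization turned them to 0.17 and 0.08.

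Pgk1 was at 9.55, 9.83 and 9.60 in placebo at day 2 and at 9.90, 10.01 and 9.16 at day 7. The third rat of placebo day 7 was the lowest of all 12 for this gene, and the other two were the highest. Under anti-miR-182 Pgk1 was at 9.36, 9.66 and 9.79 at day 2 and at 9.80, 9.85 and 9.66 at day 7. The differences between days were 0.03 ± 0.19 and 0.17 ± 0.19 (limma adjusted p = 0.928 and 0.524), with intervals of -0.38 to 0.43 and -0.24 to 0.58.

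**Figure D3:**
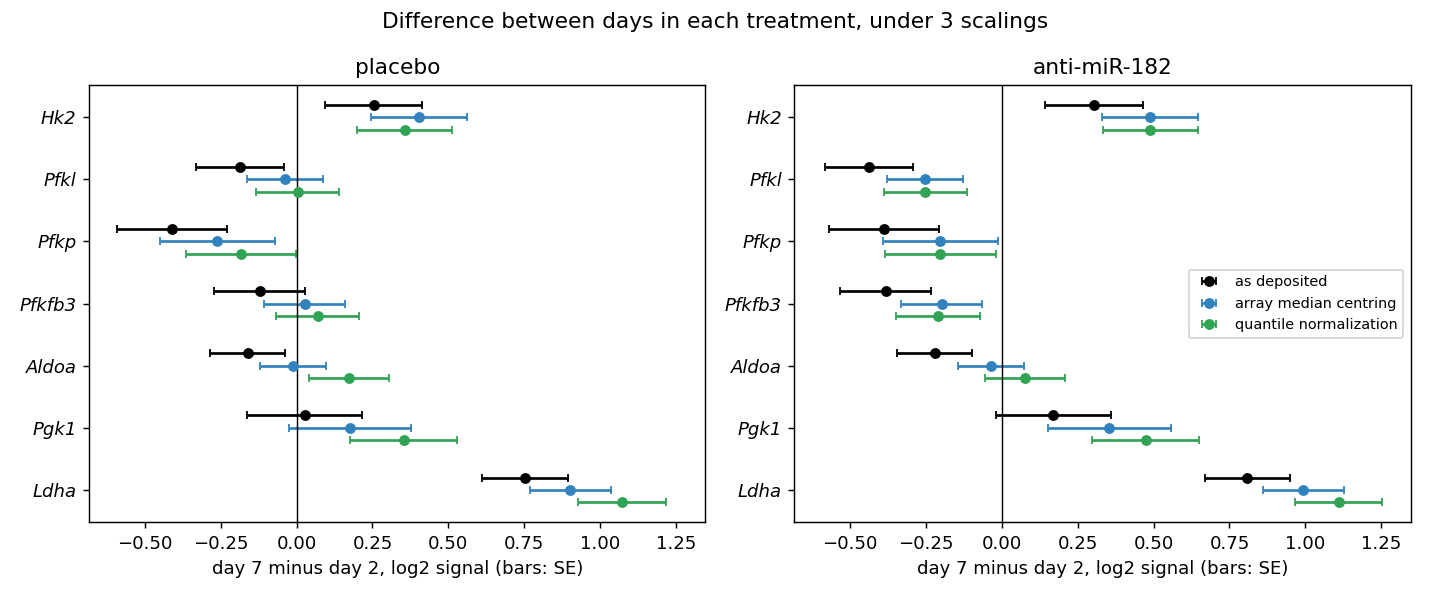
Log2 difference of day 7 minus day 2 for each of the 7 genes in placebo (left) and anti-miR-182 (right) under 3 scalings; bars are SE of the limma fit. Ldha lies at 0.75 to 1.11 in all of them, whereas the placebo values of Pfkl, Pfkfb3 and Aldoa change sign with the scaling.

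Over the 7 genes, 3 had a higher and 4 a lower mean at day 7 in each treatment. The median difference of the 7 was -0.12 in placebo and -0.22 under anti-miR-182, beside -0.18 and -0.21 for all genes tested.

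Treatment was compared within each day, so that the scaling of the days does not enter. None of the 7 genes passed the test at day 2, at day 7, as the mean over both days, or for the difference between days. The background was as low: limma called 0% of all genes at day 2, at day 7 and for the difference between days, and 0.0055% (1 gene, Mir182) for the mean. At an unadjusted p under 0.05 the counts among the 7 genes were 0, 1, 2 and 0 in that order, beside 6.61%, 3.26%, 5.27% and 3.92% of all genes tested.

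At day 2 the differences of anti-miR-182 minus placebo were -0.29 ± 0.18 for Pfkp, -0.25 ± 0.14 for Ldha, -0.09 ± 0.12 for Aldoa and -0.07 ± 0.15 for Pfkfb3. Those of Pgk1, Hk2 and Pfkl were -0.06 ± 0.19, -0.00 ± 0.16 and 0.06 ± 0.15. The groups of placebo and anti-miR-182 overlapped at day 2 for each of the 7 genes, while 12.3% of all genes did not overlap (8.06% higher and 4.24% lower). The interval for Ldha ran from -0.55 to 0.05 and that for Pfkp from -0.68 to 0.10. Doublings or halvings thus lie outside the intervals of all 7 genes. The lowest limit was -0.68 (Pfkp) and the highest 0.37 (Pfkl), and differences inside the interval of a gene are not excluded for it.

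At day 7 Pfkfb3 was the gene whose treatment groups did not overlap, with 6.63 to 6.85 under anti-miR-182 against 6.98 to 7.13 in placebo. Of all genes, 7.26% did not overlap (3.5% higher and 3.75% lower). The Pfkfb3 difference was -0.33 ± 0.15 (interval -0.66 to -0.01), with an unadjusted limma p of 0.0442 and an adjusted p of 0.999. It stayed between -0.39 and -0.28 over 22 alternatives, none of which passed. The other day 7 differences were -0.27 ± 0.18 for Pfkp, -0.20 ± 0.14 for Ldha, -0.19 ± 0.15 for Pfkl and -0.15 ± 0.12 for Aldoa. Hk2 and Pgk1 had 0.05 ± 0.16 and 0.08 ± 0.19.

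Averaged over both days, Pfkp differed by -0.28 ± 0.13 and Ldha by -0.22 ± 0.10 (unadjusted limma p of 0.0475 and 0.0425, adjusted p = 0.888 for both). The mean difference of Pfkfb3 was -0.20 ± 0.11 and that of Aldoa -0.12 ± 0.09. Pfkl, Hk2 and Pgk1 lay at -0.06 ± 0.10, 0.02 ± 0.11 and 0.01 ± 0.13. Of the 7 genes, 6 had a lower mean under anti-miR-182 at day 2, counting Hk2 with its difference near 0, and 5 at day 7. Of all genes, 58.7% were higher under anti-miR-182 at day 2 and 49.8% at day 7. The medians of the 7 were -0.07 and -0.19, beside 0.03 and -0.00 over all genes. The genes lie on the same arrays and were not selected at random, so no test is attached to these counts.

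**Figure D4:**
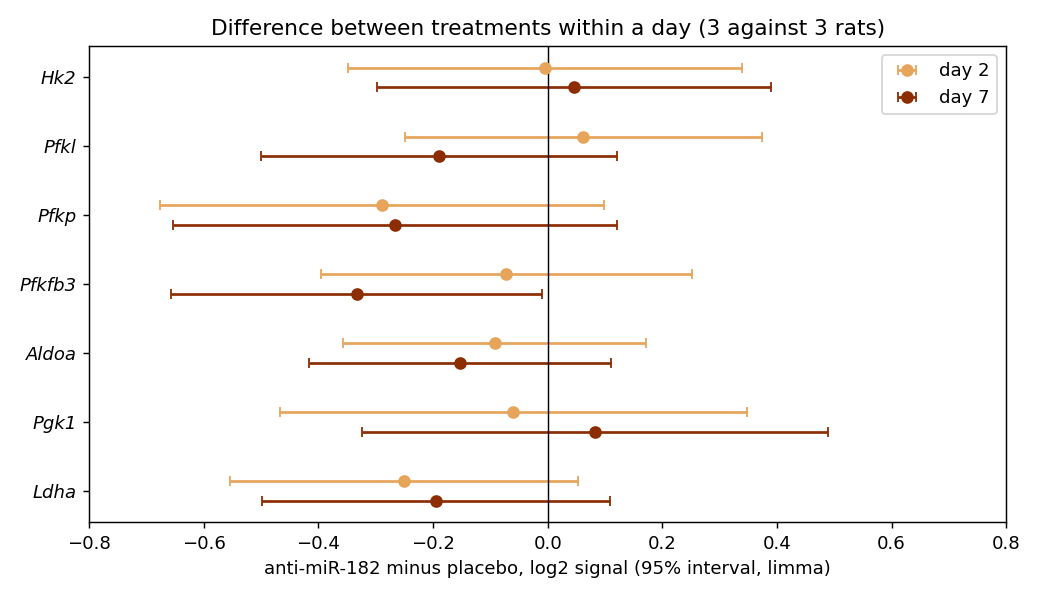
Log2 difference of anti-miR-182 minus placebo for each of the 7 genes at day 2 and day 7 (3 against 3 rats); points are the limma estimates and bars their 95% intervals. All intervals cover 0 except that of Pfkfb3 at day 7 (-0.66 to -0.01), whose adjusted p is 0.999.

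Whether the treatment difference changed between days was tested as an interaction. It was largest in size for Pfkfb3, at -0.26 ± 0.21, and Pfkl, at -0.25 ± 0.21, and 0.14 ± 0.27 for Pgk1. The limma adjusted p was 0.999 for each of the 7 genes.

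The rest of the pathway was read from lists of related genes, whose counts of calls as deposited stand beside 4.22% of all genes higher and 23.7% lower in placebo, and 2.68% and 24.9% under anti-miR-182. Calls that another scaling ended are named as such. Of 22 other glycolytic enzymes 16 were tested, and 0 rose and 5 fell with time in each treatment as deposited, with medians of -0.22 and -0.26. Pfkfb1, a liver and muscle relative of Pfkfb3, fell by 0.65 ± 0.11 in both (limma adjusted p = 0.00160 in placebo and 0.00155 under anti-miR-182). Pfkfb2, the heart and kidney relative, fell by 0.46 ± 0.11 in both. Pklr, the liver and red cell pyruvate kinase, fell by 0.38 ± 0.14 and 0.54 ± 0.14. Pfkm, the muscle-type phosphofructokinase subunit, fell by 0.41 ± 0.12 in placebo and by 0.38 ± 0.12 under anti-miR-182. Gpi fell by 0.50 ± 0.16 under anti-miR-182 (limma adjusted p = 0.0318). With centring or quantile normalization only Pfkfb1 of these was still called as lower, in both treatments, and 1 gene of the list was called as higher in placebo. The Pfkfb1 row is dim, with log2 signals of 5.54 to 5.81 at day 2 and 4.91 to 5.16 at day 7. These lie below the median signal of every array. Filters on the genes with the lowest signal left Pfkfb1 out, so its call was tested under 19 alternatives and passed in these. Ldhb, the other main lactate dehydrogenase subunit, differed by -0.01 ± 0.16 and -0.24 ± 0.16 and did not pass (limma adjusted p = 0.956 and 0.292).

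Among 10 glucose and lactate transporters, Slc5a1, a sodium-glucose cotransporter, rose by 0.42 ± 0.14 in placebo and 0.57 ± 0.14 under anti-miR-182 (limma adjusted p = 0.0351 and 0.00908), under all 3 scalings. Its placebo call was lost when every row was tested (0.0649), without placebo day 2 replicate 1 (0.0975) or 3 (0.142), and without placebo day 7 replicate 1 (0.0673), 2 (0.0544) or 3 (0.0993). Slc16a1, the monocarboxylate carrier MCT1, which moves lactate and pyruvate, fell by 1.31 ± 0.38 and by 1.21 ± 0.38 (limma adjusted p = 0.0202 and 0.0291). Its call was lost with centring (0.0510 and 0.0935) and with quantile normalization (0.0618 and 0.107). Slc2a5, a fructose carrier, fell by 0.54 ± 0.12 under anti-miR-182, a call lost with centring (0.0587), and Slc16a3, the lactate exporter MCT4, differed by 0.18 ± 0.11 and -0.09 ± 0.11 and did not pass.

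Of 12 genes that decide what happens to pyruvate in the mitochondrion, 5 fell in placebo and 4 under anti-miR-182 as deposited, and the others did not pass. Pdk4, a kinase that switches off pyruvate dehydrogenase, fell by 0.98 ± 0.27 in placebo, and Pdha1, a subunit of that enzyme, by 0.40 ± 0.13. Dld and Pdk3 fell by 0.52 ± 0.16 and by 0.51 ± 0.16 in placebo. Under anti-miR-182 the kinases Pdk3 and Pdk1 fell by 0.56 ± 0.16 and by 0.54 ± 0.14. There Pdhb fell by 0.43 ± 0.14 and Pdhx by 0.40 ± 0.11. None of the 12 was called under all 3 scalings.

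Gluconeogenesis, the reverse route from pyruvate to glucose, had 4 of 7 genes that fell in placebo and 3 of 7 under anti-miR-182. Pck1, its rate-setting enzyme in the kidney, fell by 2.50 ± 0.29 in placebo and by 2.03 ± 0.29 under anti-miR-182 (limma adjusted p = 0.000153 and 0.000544), under all 3 scalings. Fbp1, which opposes phosphofructokinase, fell by 1.46 ± 0.25 and by 0.93 ± 0.25, and Fbp2 by 1.26 ± 0.22 and by 0.89 ± 0.22. For both, the call held under all 3 scalings in placebo and not under anti-miR-182. Pck2 fell by 0.52 ± 0.15 in placebo, a call lost with centring (limma adjusted p = 0.0683) and quantile normalization (0.0937).

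The genes of the HIF pathway gave a mixed picture. Hif1a, which encodes the oxygen-regulated subunit of HIF-1, differed by -0.04 ± 0.10 and -0.09 ± 0.10 between days and did not pass. Of 15 regulators of glycolytic genes, 1 rose and 2 fell in placebo, and 0 rose and 2 fell under anti-miR-182. Egln1, an oxygen sensor that marks HIF for destruction, fell by 0.79 ± 0.19 in placebo, and Hif1an, which blocks HIF activity, fell by 0.43 ± 0.10 in placebo and by 0.30 ± 0.10 under anti-miR-182. Pparg, a nuclear receptor, rose by 0.58 ± 0.16 in placebo, and Mxi1, a MYC antagonist, fell by 0.39 ± 0.13 under anti-miR-182. None of the regulators that fell was called under all 3 scalings. Quantile normalization ended the call of Egln1 (adjusted p = 0.0596). Centring and quantile normalization ended those of Hif1an in placebo (0.0754 and 0.0725) and under anti-miR-182 (0.489 and 0.459), and that of Mxi1 (0.359 and 0.734). Mxi1 shrank to -0.07 with quantile normalization. The call of Pparg held under all 3 scalings and was lost without placebo day 2 replicate 2 (0.0631) or 3 (0.0529) and without placebo day 7 replicate 1 (0.0818) or 2 (0.0625).

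Of 15 other HIF target genes, 1 rose and 3 fell in placebo, and 1 rose and 2 fell under anti-miR-182. The one that rose with Ldha was Plod2, a collagen-modifying enzyme, by 0.86 ± 0.19 and 0.67 ± 0.19 (limma adjusted p = 0.00655 and 0.0203), under all 3 scalings. Its call under anti-miR-182 was lost with array weights (0.0590) and without replicate 3 of that treatment at day 2 (0.0550) or day 7 (0.0871). Vegfa, the vascular growth factor, fell by 0.62 ± 0.14 and by 0.63 ± 0.14, calls that quantile normalization ended (0.0924 and 0.0894). P4ha2 (-0.53 ± 0.12) and Ndrg1 (-0.60 ± 0.20) fell in placebo, and Hmox1, which breaks down heme, fell by 0.72 ± 0.15 under anti-miR-182. P4ha2 and Hmox1 were called under all 3 scalings, while the call of Ndrg1 was lost with centring (0.113) and quantile normalization (0.306).

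In the pentose phosphate pathway and other branches from glycolysis, 1 gene of 12 rose in each treatment, and 5 fell in placebo and 4 under anti-miR-182. Gfpt2, which starts the hexosamine branch, rose by 0.78 ± 0.13 and 0.50 ± 0.13 under all 3 scalings. Psat1, of serine synthesis, fell by 1.23 ± 0.24 and by 0.80 ± 0.24, and Tkt, transketolase, by 0.70 ± 0.19 and by 0.82 ± 0.19. Psat1 held under all 3 scalings in placebo, and under anti-miR-182 its call was lost with centring (0.129) and quantile normalization (0.150). Tkt lost its call with quantile normalization in both treatments (0.208 and 0.0910). Gpd1, which links glycolysis to glycerol, fell by 0.83 ± 0.17 in placebo, and Pgls, of the oxidative arm, by 0.65 ± 0.14 under anti-miR-182, both under all 3 scalings.

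**Figure D5:**
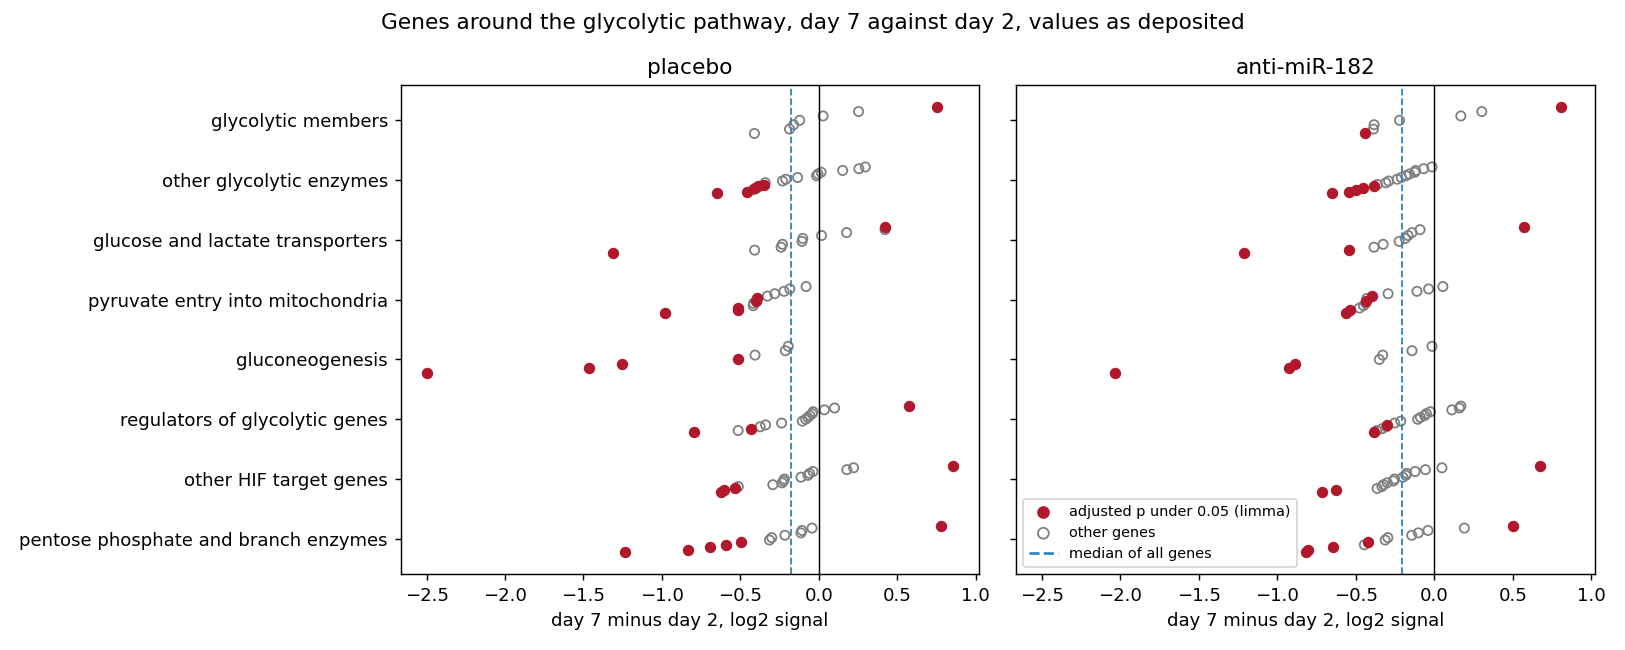
Log2 difference of day 7 minus day 2, as deposited, for each gene of 8 lists in placebo and anti-miR-182; red points have a limma adjusted p under 0.05, and the dashed line is the median of all genes (-0.18 and -0.21). Ldha is the red point to the right among the 7 genes, and the gluconeogenesis list holds the lowest value, that of Pck1.

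Treatment called 0 genes in each of these 7 lists at either day by limma. The gene with the smallest unadjusted p of each list at day 2 was Aldoc (0.25 ± 0.12), Slc2a5 (0.32 ± 0.12), Pdk4 (-0.73 ± 0.27), Pck2 (-0.39 ± 0.15), Egln1 (-0.54 ± 0.19), Hmox1 (0.50 ± 0.15) and Gpd2 (-0.23 ± 0.15), in the order of the lists above. At day 7 it was Eno2 (-0.39 ± 0.15), Slc5a1 (0.21 ± 0.14), Pdk4 (0.22 ± 0.27), Fbp1 (0.59 ± 0.25), Hif1an (0.19 ± 0.10), Plod2 (-0.51 ± 0.19) and Gpd1 (0.33 ± 0.17). Counts at an unadjusted limma p under 0.05 follow in the same order of lists. At day 2 they were 1 of 16, 2 of 10, 1 of 12, 1 of 7, 3 of 15, 1 of 15 and 0 of 12. At day 7 they were 1, 0, 0, 2, 0, 1 and 0. Of all genes 6.61% and 3.26% lay under this threshold.

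In whole tissue, fewer cells of a type and less RNA per cell cannot be told apart, and markers of several cell types moved between the days in which Ldha rose. Counts of marker calls as deposited stand beside 4.22% of all genes higher and 23.7% lower in placebo. Under anti-miR-182 these shares were 2.68% and 24.9%. Of 12 cell cycle genes 11 fell in each treatment, with mean log2 levels of 8.09 to 8.79 on the day 2 arrays and 6.93 to 7.63 at day 7. Of 12 macrophage genes 5 rose in placebo and 2 under anti-miR-182, with mean levels of 6.97 to 7.004 in placebo at day 2 and 7.14 to 8.35 at day 7, and of 6.84 to 7.14 and 7.23 to 7.34 under anti-miR-182. Of 8 lymphocyte genes 5 rose and 1 fell in placebo, against 0 and 1 under anti-miR-182, with mean levels of 5.78 to 5.83 and 6.03 to 6.94 in placebo and of 5.75 to 6.16 and 6.16 to 6.26 under anti-miR-182. Of 9 fibroblast and matrix genes 3 rose in placebo and 1 under anti-miR-182, with mean levels of 7.57 to 7.81 and 8.17 to 8.96 in placebo and of 7.25 to 7.81 and 7.88 to 7.93 under anti-miR-182. With centring and with quantile normalization, 6 and 7 macrophage genes rose in placebo and 3 under anti-miR-182 each time. For matrix genes these counts were 5 and 6 in placebo and 2 and 3 under anti-miR-182, and for lymphocyte genes 5 in placebo and 2 under anti-miR-182 each time. The shares of all genes under these scalings are given above. Counts in placebo and under anti-miR-182 come from separate comparisons and do not test a treatment difference. The treatment difference between days called 0 genes of the cell cycle, macrophage, lymphocyte and matrix lists.

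Tubule and other markers were counted beside the same shares of all genes. The 3 falls of 11 proximal tubule genes under anti-miR-182 are near the 24.9% of all genes lower there. Of 11 proximal tubule genes 6 fell in placebo and 3 under anti-miR-182, from mean levels of 10.6 to 10.7 to 9.61 to 9.86 in placebo and from 10.3 to 10.8 to 9.54 to 10.4 under anti-miR-182. With centring 3 and 1 fell, and with quantile normalization 2 and 0, beside the shares of all genes given above for these scalings. Of 9 genes of the thick limb and distal tubule 0 were called in placebo and 3 fell under anti-miR-182, of which centring left 1 and quantile normalization 0. Of 11 tubular injury genes 1 fell in placebo, and 2 rose and 1 fell under anti-miR-182. Among 7 neutrophil genes 1 rose and 2 fell in placebo and 2 fell under anti-miR-182. Red blood cell genes gave 1 rise of 3 in placebo, and 1 rise and 1 fall under anti-miR-182. That fall is of Slc4a1, which is also on the list of the thick limb and distal tubule and is counted there too. Perirenal fat genes gave 1 rise of 5 in each treatment. Of 5 skeletal muscle genes 1 rose and 1 fell in placebo, and 2 rose and 1 fell under anti-miR-182, with mean levels of 5.60 to 5.87 over all arrays. Mean levels over all arrays were 4.78 to 5.15 for neutrophil genes and 4.72 to 5.66 for red blood cell genes. The lowest log2 signal of any row was 1.48, so a row at 0 could not occur, and detection of these genes was not tested. The treatment difference between days called 0 genes in each of these lists as well. The part of these markers in the rise of Ldha was not tested.

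The mean of the 7 on an array, minus the mean of its day, ran from -0.23 in anti-miR-182 day 2 replicate 3 to 0.25 in placebo day 7 replicate 2. The genes most like this mean over the 12 arrays, after each day's mean was taken away, were Hebp1 (Pearson r = 0.950), En2 (0.932), Aldh3b1 (0.909), Pmm1 (0.905) and Josd2 (0.903). Spearman's rho was 0.909, 0.904, 0.888, 0.825 and 0.818 in the same order. These were picked as the highest values among all other genes and share the arrays and their scaling, so they are a description without a test.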

How the data were processed

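Per the labels, total RNA of whole kidney was prepared with Trizol, and the biotin-labelled target was made from 200 ng. The authors deposited log2 signals, and the submitters' processing notes name RMA, which corrects background, normalizes arrays and joins the probes of a row. Its version, and which arrays were normalized together, is not given in the sources used here. Input values were used as deposited, from 1.48 to 13.4, and precision is limited by the number of arrays.

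Of 36685 rows, 18511 had 1 symbol and 575 several, and 17599 were not listed. Of the single symbols 18394 matched RefSeq by gene ID. For 291 genes with several rows the one with the highest mean was tested. A model of 4 group means was fitted per gene (limma 3.58.1, R 4.3.3), and 6 comparisons were drawn with eBayes. A gene passed at a Benjamini-Hochberg adjusted p under 0.05 over 18166 genes. The steps were tested on simulated data. P-values set a difference against the spread between animals, pooled over the 4 groups and moderated over all genes by eBayes. Between days they cannot separate time from a normalization run.

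The genes and lists were chosen with earlier results of these data known. Named were all 7 genes and the 5 genes most like the mean of the 7. Between days, up to 4 passing genes with the largest difference per list of related genes were named. For treatment at day 2 and at day 7 the gene with the smallest unadjusted p of each such list was named. Cell type lists are given by counts and levels. Slc16a3, Ldhb, Hif1a and Pfkm under anti-miR-182 were added for their role after their values were seen. Alternatives were each day fitted alone, a trend or robust eBayes, array weights, array centring, quantile normalization, a filter on the 25% or 50% of genes with the lowest signal, other row rules and each array left out.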

Additional observations from a re-analysis of the deposited data

How the results depend on the processing

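Ldha kept its rise under every alternative run. The count of called genes among the 7 was 1 in placebo between days and 2 with array weights; under anti-miR-182 it was 2, 3 with array weights, and 1 with quantile normalization, array median centring or every row tested. Leaving out an array gave 1 in all cases in placebo and 1 to 3 under anti-miR-182. The treatment comparisons gave 0 under all alternatives.

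Some small differences, none past the threshold, changed sign. With array weights Pfkfb3 at day 2 between treatments was 0.015 and the Pfkp interaction -0.0023, which was -0.018 with quantile normalization. Between days in placebo quantile normalization gave 0.0041 for Pfkl, 0.069 for Pfkfb3 and 0.17 for Aldoa, and 0.076 for Aldoa under anti-miR-182. Centring gave 0.027 for Pfkfb3 in placebo. The cause was not tested.

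Leaving out 1 array gave these ranges, which cross 0. For treatment at day 2 they were -0.11 to 0.087 for Hk2, -0.038 to 0.24 for Pfkl, -0.20 to 0.12 for Pfkfb3 and -0.15 to 0.063 for Pgk1. At day 7 they were -0.062 to 0.24 for Hk2 and -0.18 to 0.24 for Pgk1. For the mean of both days they were -0.033 to 0.12 for Hk2, -0.11 to 0.024 for Pfkl and -0.12 to 0.092 for Pgk1. For the interaction they were -0.058 to 0.25 for Hk2, -0.19 to 0.17 for Pfkp, -0.14 to 0.042 for Aldoa, -0.12 to 0.30 for Pgk1 and -0.070 to 0.15 for Ldha. Between days in placebo Pgk1 ranged from -0.13 to 0.29.

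Over all genes 5080 were called between days in placebo, 3228 with centring, 2890 with quantile normalization, 3364 without the 50% of genes with the lowest signal and 3198 to 5773 with 1 array left out. Under anti-miR-182 5002 were called, and 2482, 2676, 2651 and 3069 to 5072 in the same order. Hk2 is among the dimmest 50% and has no value there, and fits of a single day give treatment comparisons only. Pfkfb1, of the other glycolytic enzymes, has no value with either filter on low signal. No paired analysis was possible because the replicate numbers were given in accession order and pair no animals.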
